A study of Mus musculus with 7 samples.

Results

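Genes of the proteasome and of its regulators were followed in RNA from isolated pancreatic islets of mice that had eaten a 60% high-fat diet for 15 weeks. Members were all rows of the gene count table whose symbol begins with Psm, a letter from a to g and a digit, without the interferon-linked genes Psmb8, Psmb9, Psmb10, Psme1 and Psme2 and without 5 named pseudogenes, which held at most 4 counts in any library. This left 46 of 55487 genes: 16 of the core particle, 9 of the base and 8 of the lid of the regulatory particle, 3 assembly chaperones of the base, 4 of the core, 2 activators, 1 inhibitor, and 3 genes whose symbols match the letters but which are no subunits (Psmc3ip, a meiotic recombination factor, Psme3ip1, which binds PSME3, and Psme2b, a copy of Psme2). The groups were 4 control mice, whose alleles the labels do not give, and 3 Traf6 KO mice. The series' design text calls the knockout beta-cell specific, and its driver, the age and the litter were not given in the sources used here. Both groups had the same diet, and all islets recovered for 24 hours in medium after isolation. The library names carry separate tags, and 1 tag was read as 1 mouse, since no label says so outright. The p-values measure only the spread between these samples, which would be technical where a mouse gave more than 1.

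The proteasome degrades proteins that carry ubiquitin chains. Its barrel-shaped core particle holds the proteolytic sites inside paired beta rings, closed off by outer alpha rings, and the regulatory particle on its ends recognises, deubiquitinates and unfolds substrates through a base of ATPases and a lid. Cells make the subunits in matched amounts, assemble them with dedicated chaperones, and raise their transcription through NFE2L1 when the proteasome is overloaded. TRAF6, the gene product targeted here, is a ubiquitin ligase of innate immune signalling, and beta cells depend on proteasomes for the disposal of misfolded proinsulin. By its title, the study asks how TRAF6 acts on glucose homeostasis and on mitophagy, a disposal route that also begins with ubiquitin, and the values below compare the transcripts of the other route between both genotypes.

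Library totals ran from 22104256 to 29917292 counts, and the members took 26289 (Traf6 KO 1) to 82730 (control 2) of them. Levels are given as CPM, counts relative to library size after scaling by the trimmed mean of M-values (TMM). Traf6 itself stood at 17.9, 25.5 and 22.1 CPM in controls 1 to 3, 12.7 CPM in the library labelled control 4, and 14.8, 15.4 and 14.5 CPM in Traf6 KO 1 to 3, a log2 fold change of -0.40 ± 0.22 (SE) at an edgeR adjusted p of 0.416. Of all 7 libraries the one labelled control 4 held the least Traf6, though by label it is a control, and every direction below counts it as control. With overlapping groups and mixed cells, these counts cannot decide whether its label is right. The 32 acinar marker genes, all of them detected, held 19.9, 0.481, 0.457 and 3.19% of the total in controls 1 to 4, by label, against 55.4, 42.4 and 1.6% for Traf6 KO 1 to 3. The 12 beta-cell markers, also all detected, held 18.2, 20.4, 23.1 and 20.1% and 5.82, 7.6 and 12.2% in the same order. Lists of alpha, delta and gamma, ductal, endothelial, stellate, macrophage and lymphocyte markers had no gene at 0 in all libraries. Xist, expressed in females, stood at 421 CPM in Traf6 KO 3 and at no more than 0.389 CPM elsewhere. Y-linked genes held 0 counts in Traf6 KO 3 and 1221 to 4252 counts in the other libraries, so no control matches Traf6 KO 3 in sex. In such mixed tissue, fewer cells of a type and less RNA per cell cannot be told apart.

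NFE2L1 and its relative NFE2L2 bind the antioxidant response element, and the core letters TGACNNNGC of that element were searched on both strands in the 250 bases before each RefSeq start on GRCm38.p6. A total of 38 of the 46 member genes had such a sequence. The letters stood in 5 of them (13.2%), against 11.5% of 27025 genes with a window of the same length. A share this close to that of all genes is no result about the members, and a match is a description, not a bound site. CCAAT, the box read by NF-Y, stood in 15 of 38 member genes (39.5%) and in 37.5% of all genes. The 3 windows below were chosen because they belong to Psmb5 and Psmb6, catalytic subunits of the core, and to the base chaperone Psmd9, all with lower mean levels in Traf6 KO. Capitals mark the match, and each sequence reads 5′ to 3′ in the sense of the gene. Psmb5 (chr14:54617996-54618245, minus strand) has it 47 bases before the start, Psmb6 (chr11:70525107-70525356, plus strand) at 9 bases and Psmd9 (chr5:123227940-123228189, plus strand) at 31 bases. The last 27 bases of the Psmb5 window lie in an annotated GENCODE exon and the other two windows in none.
Psmb5: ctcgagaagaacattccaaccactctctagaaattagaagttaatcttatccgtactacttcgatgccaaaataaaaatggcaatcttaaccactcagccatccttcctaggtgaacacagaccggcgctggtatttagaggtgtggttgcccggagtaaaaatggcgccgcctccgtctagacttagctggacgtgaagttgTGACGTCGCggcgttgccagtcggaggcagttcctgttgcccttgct
Psmb6: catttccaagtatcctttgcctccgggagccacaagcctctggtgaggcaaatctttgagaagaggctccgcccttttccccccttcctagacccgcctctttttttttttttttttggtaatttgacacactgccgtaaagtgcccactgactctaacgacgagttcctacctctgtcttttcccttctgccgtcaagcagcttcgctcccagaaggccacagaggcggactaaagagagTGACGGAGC
Psmd9: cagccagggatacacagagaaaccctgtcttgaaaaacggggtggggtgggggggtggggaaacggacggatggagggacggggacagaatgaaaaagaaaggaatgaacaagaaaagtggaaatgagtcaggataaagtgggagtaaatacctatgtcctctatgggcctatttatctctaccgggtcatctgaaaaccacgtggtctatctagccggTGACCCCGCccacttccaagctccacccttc
The other 2 matches lay on the opposite strand, as TGACTTAGC 227 bases before the start of Psmc6 and as TGACACAGC 247 bases before that of Psmd12. The 5 genes with a match had a median log2 fold change of -0.19, and the 32 tested genes without one also had -0.19.

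Transcripts of all 14 tested core particle subunits were lower on average in Traf6 KO islets. Of these, 6 had no overlap between genotypes (42.9%, against 8.68% of all genes). The lid was split, with 4 of 8 subunits lower on average and 0 without overlap, but 7 of 8 were lower once Traf6 KO 1 was left out. The activator genes Psme3 and Psme4 were higher on average, and no single member passed the test. Psme1 and Psme2, which encode another activator of the core and lie outside the member rule, were lower on average. Of the 46 members, 44 passed the filter on low counts. With edgeR's quasi-likelihood test, 0 of these 44 had an adjusted p under 0.05, as did 0% of all 16203 genes tested, and the lowest adjusted p among members was 0.184. At an unadjusted p under 0.05 stood 11 members, all of them lower in Traf6 KO (25%), against 7.17% of all genes tested in that direction. The DESeq2 Wald test called 1 member (Psma5), while it called 4.13% of the 15394 genes to which it gave an adjusted p, and limma-voom called 0. A replicate block and an acinar covariate in edgeR left 0 members called, against 0.037% and 0.0185% of all genes. Members with a log2 fold change below 0 numbered 32 of 44 (72.7%), with a median of -0.19, whereas 49.3% of all genes tested lay below 0 and their median was 0.01. In 12 members (27.3%) all Traf6 KO values were under the lowest control, as in 8.68% of all genes, and in 0 members were they all over the highest control, against 5.58% of all genes.

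**Figure D1:**
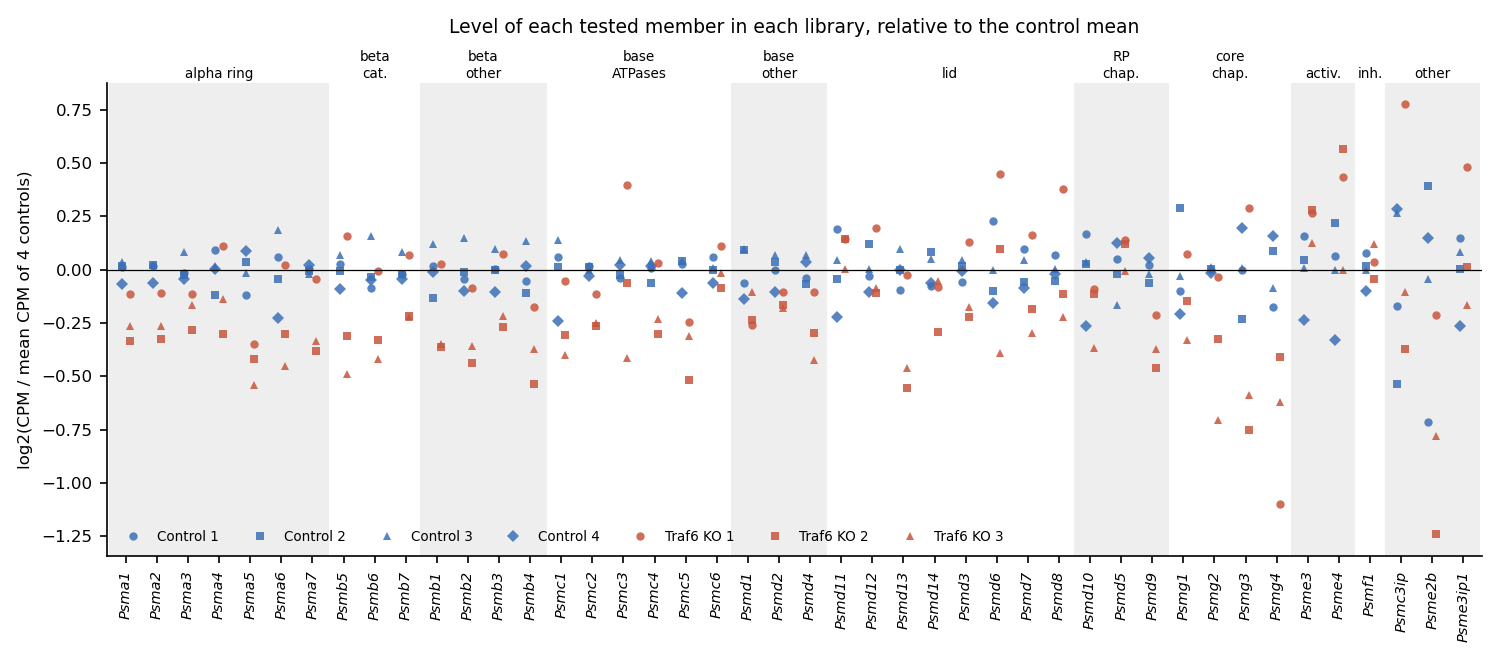
Level of each of the 44 tested members in each library, as log2 of its CPM over the mean CPM of the 4 controls (y axis), by role along the x axis (cat., catalytic; RP chap., chaperones of the regulatory particle's base; core chap., core chaperones; activ., activators; inh., inhibitor). Blue symbols are controls 1 to 4 and red symbols Traf6 KO 1 to 3: in the core particle the squares and triangles of Traf6 KO 2 and 3 lie below 0 throughout, while the circles of Traf6 KO 1 lie nearer to the controls.

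The Traf6 KO libraries were not alike in these genes. Traf6 KO 2 had the lowest level of the 7 libraries in 20 of 44 members (45.5%), against 14.9% of all genes tested, and Traf6 KO 3 in 15 (34.1%), against 19.9%. Traf6 KO 1 had the lowest level in 2 members (4.55%), against 24.8% of all genes, and the highest level in 13 (29.5%, against 23.2%). Without Traf6 KO 1, 29 of 44 members lay below every control in both remaining Traf6 KO libraries (65.9%), where 14.5% of all genes tested did so, and this included all 14 tested core subunits. Without Traf6 KO 2 the count was 8 (18.2%, against 10.6% of all genes) and the median log2 fold change of the members was -0.12, and without Traf6 KO 3 they were 14 (31.8%, against 17.7%) and -0.14. That last setting was the 1 left-out library with which edgeR called genes, 4.24% of all those tested, but again 0 members. Without the library labelled control 4 the count was 17 (38.6%, against 11.7%). Without control 1 it was 8 (18.2%, against 10.3%). Among the libraries whose tags begin with Q or R, which leaves out the library labelled control 4 and Traf6 KO 3, it was 18 (40.9%, against 21.7%). With the acinar marker mean as a covariate, 40 of 44 members had a log2 fold change below 0 and the median was -0.23. Traf6 KO 3, with an acinar share of 1.6%, gave a median of -0.27 against the acinar-poor libraries labelled control 2, 3 and 4. That library alone had high Xist and no Y-linked counts, so sex and genotype cannot be told apart in this comparison. With that 1 Traf6 KO library, 33 of 44 members lay below every one of those controls (75%), against 32.9% of all genes. Beta-cell markers also lay lower on average, 12 of 12 with a log2 fold change below 0 (median -0.31). Their order among the Traf6 KO libraries differed from that of the members. The marker mean of log2(CPM + 1) was 9.91, 10.1 and 10.21 in Traf6 KO 1 to 3, against 5.37, 5.11 and 5.08 for the members. The part of beta cells in the result was not tested.

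The alpha ring, which gates the entrance to the core and carries the docking surface for regulators, was lower on average throughout. All 7 of its tested subunits had a log2 fold change below 0 (median -0.23), and 0 passed. In 5 the groups did not overlap (71.4%, against 8.68% of all genes lower in this way). Psma5 (ENSMUSG00000068749, chromosome 3, 108256926 to 108279974, plus strand) stood at 26.1, 29.1 and 28.1 CPM in controls 1 to 3, 30.2 CPM in the library labelled control 4, and 22.3, 21.2 and 19.5 CPM in Traf6 KO 1 to 3. The 3 Traf6 KO libraries were the 3 lowest, with means of 28.4 ± 1.72 CPM over 4 controls and 21 ± 1.41 CPM over 3 Traf6 KO libraries (SD) and a log2 fold change of -0.44 ± 0.098 (SE) at an edgeR adjusted p of 0.184. This was the smallest p among the members (unadjusted p = 0.00225 by edgeR), and the exact two-sided permutation test gave 0.0571, which is the least it can reach with 35 splits. The DESeq2 Wald test alone called it, with a log2 fold change of -0.42 and an adjusted p of 0.0341. Psma1 stood at 55.9, 56.1 and 56.9 CPM in controls 1 to 3, 53 CPM in the library labelled control 4, and 51.2, 43.9 and 46.1 CPM in Traf6 KO 1 to 3. Here too the groups did not overlap, with a log2 fold change of -0.24 ± 0.089 (SE) at an edgeR adjusted p of 0.268. Psma2, Psma3 and Psma7 also had no overlap, at -0.23, -0.19 and -0.25, while Psma4 at -0.10 and Psma6 at -0.23 overlapped. Psma8, the testis form of Psma7, had 1, 3 and 3 counts in controls 1 to 3, 3 counts in the library labelled control 4, and 3, 0 and 2 counts in Traf6 KO 1 to 3, did not pass the filter on low counts and was not tested.

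The beta ring holds the active sites. Psmb5, the chymotrypsin-like subunit (ENSMUSG00000022193, chromosome 14, 54614119 to 54618022, minus strand), stood at 52, 50.8 and 53.5 CPM in controls 1 to 3, 47.9 CPM in the library labelled control 4, and 57, 41.1 and 36.3 CPM in Traf6 KO 1 to 3. Traf6 KO 1 was the highest of the 7 libraries and Traf6 KO 3 the lowest, so the groups overlapped, with a log2 fold change of -0.19 ± 0.15 (SE) at an edgeR adjusted p of 0.566. Without Traf6 KO 3 its log2 fold change was -0.06, and without Traf6 KO 1 it was -0.39. Psmb6, the caspase-like subunit (ENSMUSG00000018286, chromosome 11, 70525367 to 70527858, plus strand), stood at 71, 73.5 and 84.1 CPM in controls 1 to 3, 72.8 CPM in the library labelled control 4, and 75, 60 and 56.4 CPM in Traf6 KO 1 to 3. Its pattern matched that of Psmb5 in that Traf6 KO 2 and 3 were the 2 lowest libraries, with a log2 fold change of -0.24 ± 0.13 (SE) at an edgeR adjusted p of 0.383. Psmb7, the trypsin-like subunit, stood at 52, 52 and 55.9 CPM in controls 1 to 3, 51.1 CPM in the library labelled control 4, and 55.2, 45.3 and 45.3 CPM in Traf6 KO 1 to 3. Again Traf6 KO 2 and 3 were lowest and Traf6 KO 1 lay inside the range of the controls, with a log2 fold change of -0.12 ± 0.1.

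Among the beta subunits without proteolytic activity, Psmb4 (ENSMUSG00000005779, chromosome 3, 94884093 to 94886961, minus strand) stood at 88.7, 85.5 and 101 CPM in controls 1 to 3, 93.1 CPM in the library labelled control 4, and 81.6, 63.5 and 71.3 CPM in Traf6 KO 1 to 3. All Traf6 KO libraries were below all controls, with means of 92.1 ± 6.82 CPM over 4 controls and 72.1 ± 9.1 CPM over 3 Traf6 KO libraries (SD) and a log2 fold change of -0.35 ± 0.12 (SE) at an edgeR adjusted p of 0.235. Psmb2 stood at 61, 62.5 and 69.7 CPM in controls 1 to 3, 58.7 CPM in the library labelled control 4, and 59.3, 46.5 and 49.1 CPM in Traf6 KO 1 to 3, where Traf6 KO 1 exceeded the lowest control, the library labelled control 4, and the log2 fold change was -0.29 ± 0.12. Psmb1 and Psmb3 had values of -0.22 and -0.13 and overlapped. Psmb11, the thymus-specific form, had at most 2 counts in any library and was not tested. In all, 14 of 14 tested core subunits had a log2 fold change below 0, from -0.44 to -0.10 with a median of -0.23. Of these, 6 had no overlap (42.9%, against 8.68% of all genes). In the settings that tested the same 14, the number below 0 was 14 except without Traf6 KO 2, where it was 13.

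The base of the regulatory particle, a ring of ATPases with 2 large scaffold subunits and the ubiquitin receptor Psmd4, lay between core and lid. Of its 9 subunits 7 had a log2 fold change below 0 (median -0.20), 3 had no overlap (33.3%, against 8.68% of all genes) and 0 passed. The ATPase Psmc5 (ENSMUSG00000020708, chromosome 11, 106256154 to 106263120, plus strand) stood at 74.4, 75.1 and 75 CPM in controls 1 to 3, 67.6 CPM in the library labelled control 4, and 61.7, 51.1 and 58.9 CPM in Traf6 KO 1 to 3. The groups were apart, with a log2 fold change of -0.35 ± 0.1 (SE) at an edgeR adjusted p of 0.205. The ATPase Psmc2 stood at 86.7, 86.6 and 85.7 CPM in controls 1 to 3, 84 CPM in the library labelled control 4, and 79.2, 71.5 and 72.2 CPM in Traf6 KO 1 to 3, also apart, with a log2 fold change of -0.21 ± 0.086 (SE) at an edgeR adjusted p of 0.296. Psmd4 stood at 59.1, 58.1 and 63.7 CPM in controls 1 to 3, 62.4 CPM in the library labelled control 4, and 56.6, 49.4 and 45.4 CPM in Traf6 KO 1 to 3, and its Traf6 KO libraries were the 3 lowest (log2 fold change -0.27 ± 0.1, SE, edgeR adjusted p = 0.27). The scaffold subunit Psmd1 stood at 88, 98 and 98.2 CPM in controls 1 to 3, 83.7 CPM in the library labelled control 4, and 76.8, 78.2 and 85.4 CPM in Traf6 KO 1 to 3, where Traf6 KO 3 exceeded the library labelled control 4 (log2 fold change -0.20 ± 0.1, SE). Psmc3 and Psmc6 were at 0.01 ± 0.18 and 0.00 ± 0.088 (SE), and Psmc3 was highest of all in Traf6 KO 1, at 76.6 CPM, and lowest in Traf6 KO 3, at 43.6 CPM.

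The lid, which carries the deubiquitinase Psmd14, was split. Of its 8 subunits in the member list 4 had a log2 fold change below 0 and 4 above 0, the median was -0.04, and 0 had groups without overlap. Upper-quartile scaling put 6 of 8 below 0. Leaving out Traf6 KO 1 put 7 of 8 below 0, with 4 of 8 free of overlap (50%, against 14.5% of all genes). Psmd14 (ENSMUSG00000026914, chromosome 2, 61711694 to 61800376, plus strand) stood at 26.5, 29.6 and 29 CPM in controls 1 to 3, 26.7 CPM in the library labelled control 4, and 26.4, 22.9 and 26.9 CPM in Traf6 KO 1 to 3. Traf6 KO 2 was the lowest library and Traf6 KO 3 lay within the controls, with a log2 fold change of -0.14 ± 0.1 (SE) at an edgeR adjusted p of 0.528. Psmd13 had the smallest p of the lid and stood at 53.2, 56.8 and 60.7 CPM in controls 1 to 3, 56.7 CPM in the library labelled control 4, and 55.8, 38.8 and 41.2 CPM in Traf6 KO 1 to 3. Traf6 KO 2 and 3 were lowest and Traf6 KO 1 lay within the controls, with a log2 fold change of -0.33 ± 0.14 (SE) at an edgeR adjusted p of 0.299. Psmd6, a lid subunit, was highest in Traf6 KO 1, control 1 and Traf6 KO 2, the 3 libraries with the most acinar transcripts, at 100.3, 86.3 and 78.8 CPM, against 56.2 to 73.5 CPM in the others. It was named after its values were seen, and the part of acinar cells in it was not tested. With the acinar covariate 7 of 8 lid subunits lay below 0, with a median of -0.12. Sem1, a lid subunit that the symbol rule leaves out, had a log2 fold change of -0.19 ± 0.15 (SE), with overlap. It is counted below among the other pathway genes.

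**Figure D2:**
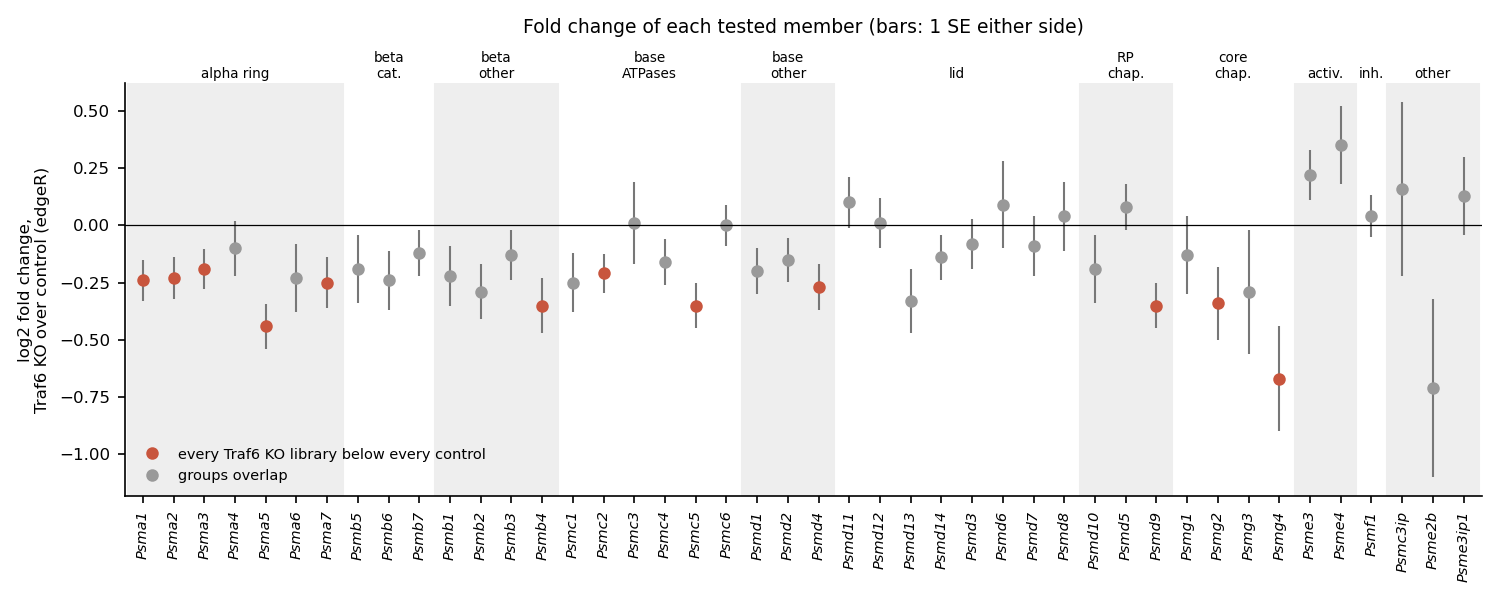
The log2 fold change of Traf6 KO over control from edgeR (y axis, bars 1 SE) for each of the 44 tested members by role (x axis). Red points are the 12 members whose Traf6 KO values were all under the lowest control: 6 in the core particle, 3 in the base, 1 base chaperone and 2 core chaperones, and 0 in the lid.

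Ratios between member groups inside a library do not depend on scaling between libraries. Core counts divided by counts of the base and lid were 0.673, 0.666, 0.702 and 0.704 for controls 1 to 4, by label, against 0.646, 0.617 and 0.647 for Traf6 KO 1 to 3. The groups did not overlap, with means of 0.686 ± 0.0197 over 4 controls and 0.636 ± 0.0168 over 3 Traf6 KO libraries (SD). The lowest ratio was that of Traf6 KO 2, with an acinar share of 42.4%. The acinar-rich control 1 (19.9%) lay at 0.673, within the controls, and the acinar-poor Traf6 KO 3 (1.6%) at 0.647, and the part of acinar cells in the ratio was not tested. Lid counts divided by base counts gave 0.719, 0.684, 0.683 and 0.702 in the controls and 0.834, 0.749 and 0.71 in Traf6 KO. These overlapped, and the 2 highest values were those of Traf6 KO 1 and 2, the libraries with the most acinar transcripts. All members together made up 0.279, 0.302, 0.303 and 0.29% of the counts outside the acinar markers for controls 1 to 4, by label, against 0.267, 0.257 and 0.267% for Traf6 KO 1 to 3, a ratio of means of 0.897. The exact 95% binomial interval of the lowest control, control 1, was 0.277% to 0.281%, and those of Traf6 KO 1 and 3 reached 0.27% and 0.269%, which covers counting error only. Control 1 was also the control with the largest acinar share. Only the acinar marker genes were left out of these totals, and the part of acinar cells in this share was not tested. These ratios sum over chosen members, so no test is given for them.

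**Figure D3:**
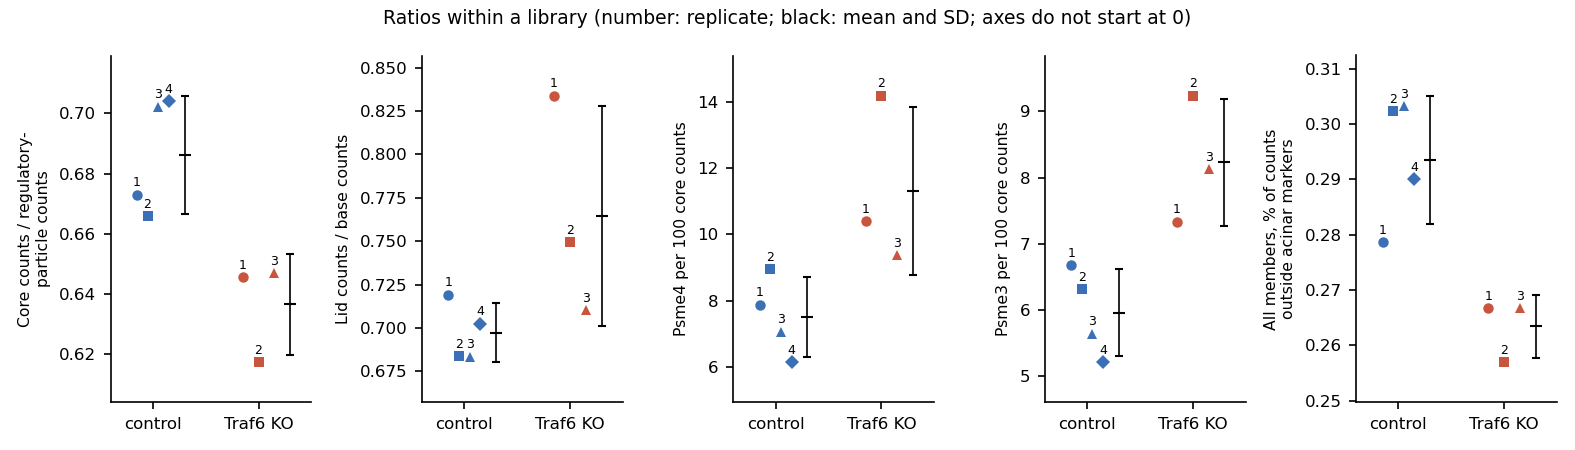
Ratios within each library (y axes, not starting at 0) by genotype (x axis): core over regulatory-particle counts, lid over base counts, Psme4 and Psme3 counts per 100 core counts, and the percentage of counts outside acinar markers taken by all 46 members. Numbers beside points are replicates and black bars the mean and SD; only the lid over base panel has groups that overlap.

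Of the activators that can cap the core in place of the regulatory particle, those in the member list, Psme3 and Psme4, lay higher on average in Traf6 KO, and neither passed the test. Psme4, the activator also named PA200 (ENSMUSG00000040850, chromosome 11, 30771726 to 30880361, plus strand), stood at 65.3, 72.6 and 62.4 CPM in controls 1 to 3, 49.6 CPM in the library labelled control 4, and 84.4, 92.5 and 62.3 CPM in Traf6 KO 1 to 3. Traf6 KO 1 and 2 were the 2 highest libraries and Traf6 KO 3 lay within the controls, with means of 62.5 ± 9.57 CPM over 4 controls and 79.7 ± 15.6 CPM over 3 Traf6 KO libraries (SD) and a log2 fold change of 0.35 ± 0.17 (SE) at an edgeR adjusted p of 0.36. Its log2 fold change was 0.50 without Traf6 KO 3, 0.22 with the acinar covariate, and 0.01 for Traf6 KO 3 against the libraries labelled control 2, 3 and 4. Psme3, which encodes the nuclear activator PA28-gamma (ENSMUSG00000078652, chromosome 11, 101316213 to 101323537, plus strand), stood at 55.3, 51.2 and 49.8 CPM in controls 1 to 3, 42.2 CPM in the library labelled control 4, and 59.6, 60.2 and 54 CPM in Traf6 KO 1 to 3. Traf6 KO 3 lay below control 1, so the groups overlapped, with a log2 fold change of 0.22 ± 0.11 (SE) at an edgeR adjusted p of 0.367. Per 100 core counts there were 7.88, 8.95, 7.06 and 6.13 Psme4 counts for controls 1 to 4, by label, against 10.4, 14.2 and 9.37 for Traf6 KO 1 to 3. For Psme3 these were 6.68, 6.31, 5.64 and 5.21 against 7.33, 9.24 and 8.13. In both ratios the Traf6 KO libraries were the 3 highest, by 1.51 and 1.38 times in the means. Summed core CPM was itself lower on average in Traf6 KO (833 in control against 710), which raises any such ratio, also with an unchanged numerator. The inhibitor gene Psmf1 per 100 core counts was 1.22 times higher in the means, with overlapping groups. No share over all genes was computed for these ratios. Psme1 and Psme2, left out of the members as interferon-linked, encode the subunits of PA28-alpha/beta, and both had the opposite direction to Psme3 and Psme4. Psme1 stood at 42.5, 51.2 and 47.8 CPM in controls 1 to 3, 59.2 CPM in the library labelled control 4, and 32.7, 26.3 and 39.1 CPM in Traf6 KO 1 to 3. Its groups did not overlap, with a log2 fold change of -0.62 ± 0.17 (SE) at an edgeR adjusted p of 0.201. Psme2 stood at 47.4, 50.2 and 49.3 CPM in controls 1 to 3, 48.5 CPM in the library labelled control 4, and 32.6, 29.8 and 34.2 CPM in Traf6 KO 1 to 3. Here too the groups were apart, with a log2 fold change of -0.60 ± 0.087 (SE) at an edgeR adjusted p of 0.176, and reads can be shared with Psme2b. Psmf1, an inhibitor of the core (ENSMUSG00000032869, chromosome 2, 151715812 to 151744186, minus strand), stood at 33.3, 32 and 31.6 CPM in controls 1 to 3, 29.4 CPM in the library labelled control 4, and 32.4, 30.6 and 34.4 CPM in Traf6 KO 1 to 3. Its highest level was in Traf6 KO 3 and its lowest in the library labelled control 4, with a log2 fold change of 0.04 ± 0.091 (SE) at an edgeR adjusted p of 0.858.

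Assembly factors of the core are needed to build its rings and leave or are degraded once it is complete. The 4 core chaperone genes Psmg1 to Psmg4 all had a log2 fold change below 0 (median -0.31), and 0 passed. In 2 of them the groups had no overlap (50%, against 8.68% of all genes). Psmg4 (ENSMUSG00000071451, chromosome 13, 34162964 to 34178173, plus strand) stood at 4.63, 5.55 and 4.92 CPM in controls 1 to 3, 5.83 CPM in the library labelled control 4, and 2.44, 3.94 and 3.4 CPM in Traf6 KO 1 to 3. Traf6 KO 1 was lowest here, unlike in most members, with a log2 fold change of -0.67 ± 0.23 (SE) at an edgeR adjusted p of 0.236. Its counts were the smallest among the subunit and chaperone genes tested, 27 in Traf6 KO 1 and up to 199 in control 2, which limits the precision. Psmg2 stood at 13.7, 13.8 and 13.8 CPM in controls 1 to 3, 13.6 CPM in the library labelled control 4, and 13.4, 10.9 and 8.43 CPM in Traf6 KO 1 to 3. The 4 controls were within 13.6 to 13.8 CPM and the Traf6 KO libraries below them, with a log2 fold change of -0.34 ± 0.16 (SE) at an edgeR adjusted p of 0.354, and -0.18 without Traf6 KO 3. Psmg1 stood at 9.64, 12.6 and 10.1 CPM in controls 1 to 3, 8.94 CPM in the library labelled control 4, and 10.9, 9.33 and 8.23 CPM in Traf6 KO 1 to 3, with overlap and a log2 fold change of -0.13 ± 0.17. Pomp, the maturation factor of the core that lies outside the symbol rule, stood at 37.5, 41.6 and 42 CPM in controls 1 to 3, 40.2 CPM in the library labelled control 4, and 33.4, 29.6 and 32.6 CPM in Traf6 KO 1 to 3. Again the groups did not overlap, with a log2 fold change of -0.34 ± 0.092 (SE) at an edgeR adjusted p of 0.201, the smallest p of the 34 other pathway genes.

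Chaperones of the base behaved unevenly. Psmd9 (ENSMUSG00000029440, chromosome 5, 123169413 to 123250131, plus strand), whose promoter window is printed above, stood at 19.1, 18 and 18.5 CPM in controls 1 to 3, 19.5 CPM in the library labelled control 4, and 16.2, 13.6 and 14.5 CPM in Traf6 KO 1 to 3. The groups did not overlap, with a log2 fold change of -0.35 ± 0.1 (SE) at an edgeR adjusted p of 0.216. Psmd10, which encodes gankyrin and is X-linked, stood at 13.5, 12.3 and 12.3 CPM in controls 1 to 3, 10 CPM in the library labelled control 4, and 11.3, 11.1 and 9.34 CPM in Traf6 KO 1 to 3. Traf6 KO 3, the library with Xist, was lowest, and the other 2 lay within the controls, with a log2 fold change of -0.19 ± 0.15. Psmd5 had a log2 fold change of 0.08 ± 0.1 and overlapped. Of the 3 genes that only match the symbol pattern, Psme2b had the lowest log2 fold change of all members, -0.71 ± 0.39 (SE, edgeR adjusted p = 0.402), at 1.09, 2.34 and 1.73 CPM in controls 1 to 3, 1.98 CPM in the library labelled control 4, and 1.54, 0.755 and 1.04 CPM in Traf6 KO 1 to 3. Its level is uncertain, since reads can be shared with the similar Psme2, and the groups overlapped. Psme3ip1 stood at 31.7, 28.7 and 30.4 CPM in controls 1 to 3, 23.9 CPM in the library labelled control 4, and 40, 28.9 and 25.5 CPM in Traf6 KO 1 to 3, highest in Traf6 KO 1 (log2 fold change 0.13 ± 0.17, SE). Leaving these 3 genes out, 31 of 41 tested members lay below 0, with the same median of -0.19.

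Levels of different genes can be compared only per length. Divided by the length of the principal GENCODE transcript, the 14 tested core subunits lay between 19.4 (Psma3) and 94.4 CPM per kb (Psmb6) in the control mean, with a median of 46.3. The 17 subunits of the regulatory particle lay between 16 (Psmd11) and 59.9 (Psmc1), with a median of 41.4. The 3 catalytic subunits were at 94.4 ± 7.42 (Psmb6), 56.8 ± 2.67 (Psmb5) and 45.5 ± 1.82 CPM per kb (Psmb7; SD, n = 4). Psmb6 lay above the other two beyond their spread on this scale, but with merged exon lengths Psmb5 at 56.8 lay above Psmb6 at 40.2 and Psmb7 at 15.4 CPM per kb, so their order depends on the length used. Assembly chaperones were lower, from 5.32 (Psmd5) to 13 CPM per kb (Psmg2), below every subunit on this scale. Psme3 was at 18.6 ± 2.06, Psme4 at 9.62 ± 1.48 and Psmf1 at 8.29 ± 0.425 CPM per kb (SD, n = 4). The lengths matter: with merged exons of all transcripts the medians of core and regulatory particle were 22.1 and 21.7, and the ranges of chaperones (2.51 to 9.43) and subunits (7.15 to 56.8) overlapped.

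**Figure D4:**
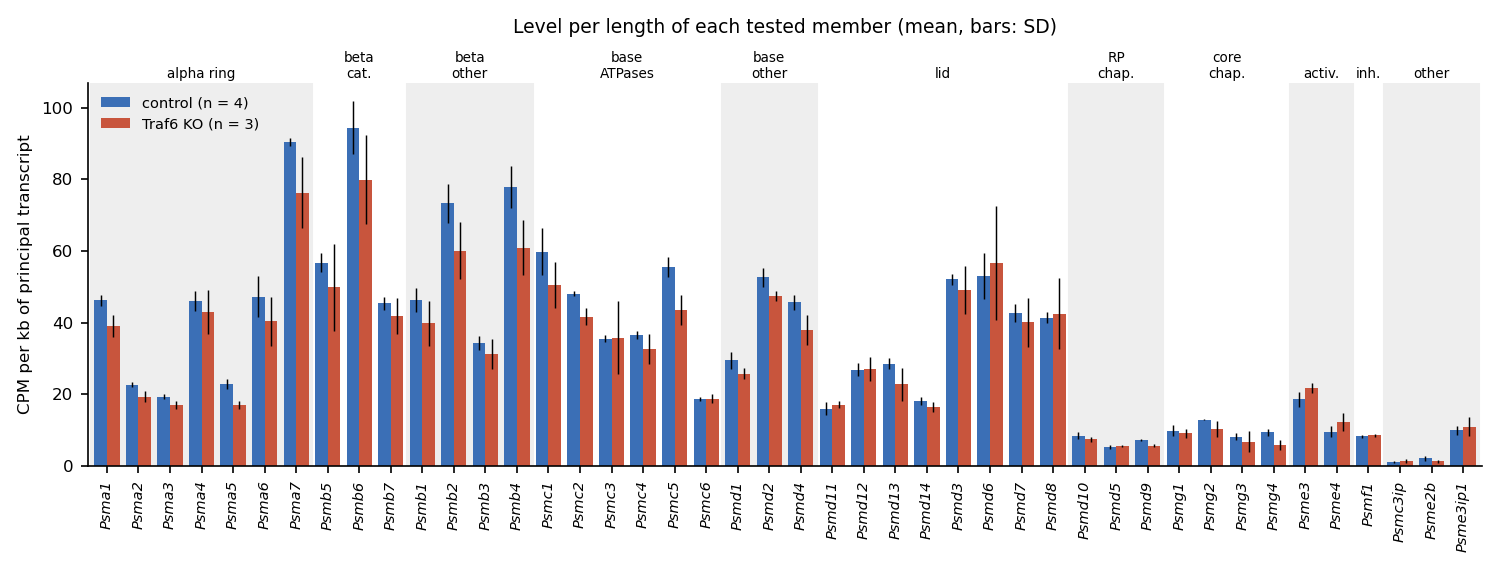
Level of each tested member per kb of its principal transcript (y axis, TMM-scaled CPM per kb), as the mean of 4 control libraries (blue) and 3 Traf6 KO libraries (red) with SD, by role (x axis). Core and regulatory-particle subunits lie between 16 and 94.4 CPM per kb in control and assembly chaperones between 5.32 and 13.

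Profiles of the members over the 7 libraries were compared with each other. As a description, without a test, the Pearson r of a member with the mean of the other standardised members was highest for Psmb7 (0.972), Psmb3 (0.971) and Psmb5 (0.963). It was below 0 for Psmd5 (-0.30), Psme3 (-0.23), Psme4 (-0.174) and Psmf1 (-0.084), a base chaperone, both activators and the inhibitor. All points share the libraries' scaling and cell mixture. Outside the pathway, the 5 genes of 8833 with a mean of at least 10 CPM that were most like the members' mean were Tceal9, Dmac1, Babam1, Ndufs3 and Ufc1 (r from 0.987 to 0.989 over 7 libraries). Ndufs3, a subunit of respiratory complex I, stood at 56.1, 54.9 and 58.5 CPM in controls 1 to 3, 51.8 CPM in the library labelled control 4, and 59, 46.1 and 43.8 CPM in Traf6 KO 1 to 3, with Traf6 KO 2 and 3 lowest as in the beta ring.

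The rest of the ubiquitin pathway lay near or slightly above 0 on average. Of 34 other genes of proteasome binding, ubiquitin supply, substrate shuttling and NFE2L1 activation, 9 had a log2 fold change below 0 and 25 above 0 (median 0.09), 1 lay below and 3 lay above all controls in all Traf6 KO libraries (as did 8.68% and 5.58% of all genes), and 0 passed (edgeR lowest adjusted p = 0.201; 6 at an unadjusted p under 0.05, against 16% of all genes in both directions). Nfe2l1, the transcription factor gene, stood at 242, 247 and 233 CPM in controls 1 to 3, 219.8 CPM in the library labelled control 4, and 212, 233 and 262 CPM in Traf6 KO 1 to 3. Highest and lowest levels were both in Traf6 KO, and the log2 fold change was 0.00 ± 0.12. Ngly1, whose product de-glycosylates NFE2L1 for its activation, stood at 27.2, 23.4 and 22.5 CPM in controls 1 to 3, 20.7 CPM in the library labelled control 4, and 45.2, 36.4 and 24.1 CPM in Traf6 KO 1 to 3. Traf6 KO 1 and 2, rich in acinar transcripts, were highest, with a log2 fold change of 0.58 ± 0.2 (SE) at an edgeR adjusted p of 0.25, and of 0.24 with the acinar covariate. Without Traf6 KO 3 edgeR called it, at 0.80.

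Among the genes that deliver substrates, Ubr2, a ligase of the N-degron pathway, stood at 70.8, 73.3 and 64.1 CPM in controls 1 to 3, 65.3 CPM in the library labelled control 4, and 83.5, 103 and 83.7 CPM in Traf6 KO 1 to 3. All 3 Traf6 KO values exceeded the highest control, with a log2 fold change of 0.40 ± 0.11 (SE) at an edgeR adjusted p of 0.205. The shuttle gene Ubqln1 stood at 84.3, 91.3 and 86.6 CPM in controls 1 to 3, 78.3 CPM in the library labelled control 4, and 104, 115 and 95.7 CPM in Traf6 KO 1 to 3, again with no overlap (log2 fold change 0.30 ± 0.11, SE, edgeR adjusted p = 0.249). Rad23b, a second shuttle, stood at 154, 149 and 146 CPM in controls 1 to 3, 129 CPM in the library labelled control 4, and 188, 187 and 160.5 CPM in Traf6 KO 1 to 3, and its lowest Traf6 KO value exceeded the highest control (log2 fold change 0.30 ± 0.11, SE, edgeR adjusted p = 0.268). Adrm1, the ubiquitin receptor of the base that the symbol rule leaves out, stood at 71.1, 63.1 and 63.9 CPM in controls 1 to 3, 65.7 CPM in the library labelled control 4, and 78.4, 54.6 and 55 CPM in Traf6 KO 1 to 3, with overlap and a log2 fold change of -0.07 ± 0.14.

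Interferon-linked subunits replace the constitutive catalytic ones in immune-stimulated cells. Psmb8 counts per Psmb5 count came to 0.345, 0.44, 0.442 and 0.584 for controls 1 to 4, by label, against 0.366, 0.224 and 0.477 for Traf6 KO 1 to 3. Psmb9 counts per Psmb6 count came to 0.142, 0.166, 0.158 and 0.308 against 0.134, 0.121 and 0.222, with overlap in both and the highest value in the library labelled control 4. That library also had the highest macrophage marker mean, 5.42 on the log2(CPM + 1) scale against 3.3 to 4.21 in the others (8 of 8 markers detected), and the part of macrophages in the ratios was not tested. Psmb10 counts per Psmb7 count were higher in Traf6 KO in the means, 0.699 against 0.383 in control, with overlap. Their values by library are given under the other observations.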

How the data were processed

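A deposited table held raw whole-number counts by gene for 7 libraries. The submitters' processing notes list STAR 2.6.1b, RSEM 1.3.1, FastQC and GRCm38 without saying what each did, and RSEM gives estimates, so rounding before deposit is possible. Annotation, strand setting and any gene filter were not given in the sources used here, which leaves overlapping genes uncertain. Per the labels, reads were paired ends of 151 bp. Members and lists were chosen with earlier results of these data known.

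The whole table was fitted by edgeR 4.0.16 in R 4.3.3 (quasi-likelihood F test, TMM, genotype as the only term, filterByExpr with a minimum count of 10 and total of 15), and p-values were Benjamini-Hochberg adjusted over 16203 genes. The SE is the absolute fold change over the root of F. Fold changes are Traf6 KO over control. For single genes, log2 CPM was also compared by exact permutation, two-sided, over 35 splits (scipy 1.17.1). The fit was tested on simulated counts. Coordinates and lengths are from GENCODE M21 (GRCm38), where all 46 members matched, and promoters from RefSeq (GRCm38.p6). Named are 25 members and 8 pathway genes: the 2 smallest p in each role with at least 3 tested members, the highest and lowest fold change, the 4 smallest p of the pathway list besides 4 fixed genes (1 more is not reported here), and 11 members fixed whatever their values. Others are named as counts or ranges require, after their values were seen, as were the ratios and levels per length. All 21 pairs of libraries differed by more than sampling noise (lowest chi-square per gene 21.8). Alternatives were DESeq2 1.42.0, limma 3.58.1 voom, other scalings and filters, covariates, blocks and left-out libraries.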

Additional observations from a re-analysis of the deposited data

Results flagged for a closer look

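Among 57 genes examined in the 4 control libraries, 2 had 1 library far from the other 3 relative to the range. This is no more than the 1 in 20 or so that chance gives, so it is no result about these genes or that library. Psma2 stood at 63.3 CPM in the library labelled control 4 against 66.9 to 67 CPM in controls 1 to 3. Psmc5 stood at 67.6 CPM in that library against 74.4 to 75.1 CPM. In both genes it was the lowest control and still lay above every Traf6 KO library. It is also the library with the lowest Traf6 level.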

How the results depend on the processing

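Leaving out each library in turn left the number of members called by edgeR at 0 (from 0 to 0). The median log2 fold change of the members stayed between -0.23 and -0.12. Members without overlap, in either direction, numbered between 8 and 29, the latter without Traf6 KO 1. Over all genes, between 10.1% (without control 3) and 17.7% (without Traf6 KO 3) lay lower, and between 6.61% and 16.5% higher in the same 2 settings. The DESeq2 Wald test called 1 member, Psma5. Among the Q- and R-tagged libraries 21 members did not overlap, 18 of them lower (over all genes 21.7% lay lower and 19.5% higher), and the S-tagged pair, 1 library a group, allows no test. Without control 1 and Traf6 KO 1 and 2 the median was -0.27 and 35 members did not overlap, 33 of them lower, where with 1 Traf6 KO library 32.9% of all genes lay lower and 32% higher. All other settings gave 0 calls, a median from -0.23 to -0.17 and 9 to 15 members without overlap, all lower, where 6.3% to 10.8% of all genes lay lower. With the replicate block the median was -0.21. Deviations from the group means of same-numbered libraries had r = 0.471, -0.082 and 0.413 for numbers 1 to 3. Differently numbered libraries were not compared, so these values cannot decide whether the numbers pair the mice, and no label says so.

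Among named genes, directions turned where the value was near 0 or 1 library stood out. Adrm1 was at 0.01 in the Q- and R-tagged libraries and between -0.26 and 0.03 with each library left out. Nfe2l1 was at -0.04 with upper-quartile factors, -0.01 with limma-voom, -0.02 without the low-count filter, -0.03 with the replicate block, 0.00 with tag letters as a covariate and -0.11 in the Q- and R-tagged libraries, and between -0.08 and 0.08 with each library left out. Psme3ip1 was at -0.05 with the acinar covariate and -0.13 without control 1 and Traf6 KO 1 and 2, and between -0.07 and 0.26 with each left out. Psmf1 was at -0.04 in the Q- and R-tagged libraries and between 0.00 and 0.09 with each left out. Ubb was at 0.27 with the acinar covariate and 0.46 without control 1 and Traf6 KO 1 and 2, and between -0.57 and 0.10 with each left out. The cause was not tested. Other scalings put the median of all genes between -0.03 and 0.03. With merged exon lengths the median levels per kb were 22.1 for the core and 21.7 for the regulatory particle. Depth limits Psma8, Psmb11 and Psmg4.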

Other observations

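Genes of ubiquitin supply and stress were uneven among the Traf6 KO libraries. Ubb, a polyubiquitin gene, stood at 628, 837 and 861 CPM in controls 1 to 3, 504 CPM in the library labelled control 4, and 501, 454 and 1015 CPM in Traf6 KO 1 to 3. Traf6 KO 3 was the highest of the 7 libraries, and Traf6 KO 1 and 2 lay below the lowest control. Its log2 fold change was -0.11 ± 0.33 (SE) at an edgeR adjusted p of 0.9, and reads can be shared between copies of such genes. Zfand2a, a stress-induced gene whose product binds proteasomes, stood at 16.9, 21.4 and 20.4 CPM in controls 1 to 3, 16.2 CPM in the library labelled control 4, and 16, 18.8 and 82.4 CPM in Traf6 KO 1 to 3, and only Traf6 KO 3 departed from the others. Uchl5, a deubiquitinase of the regulatory particle, stood at 20.3, 17.5 and 16.2 CPM in controls 1 to 3, 15.3 CPM in the library labelled control 4, and 43.4, 28.4 and 15.5 CPM in Traf6 KO 1 to 3, highest in Traf6 KO 1 and 2. Zfand2a and Uchl5 were chosen after their values were seen.

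Psmb10 counts per Psmb7 count came to 0.445, 0.321, 0.304 and 0.463 for controls 1 to 4, by label, against 1.11, 0.672 and 0.313 for Traf6 KO 1 to 3. The highest values were those of Traf6 KO 1 and 2, with acinar shares of 55.4% and 42.4%, and the part of acinar cells in this was not tested.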
